A study of Homo sapiens and synthetic construct with 52 samples.

Results

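The guides described here are the 85 sgRNAs against the Integrator complex in the genome-wide CRISPRi V2 library. They were chosen by name, as every guide whose target is called INTS followed by digits, or ASUN, VWA9, C7orf26, NABP1 or NABP2. The choice was made with earlier results of these data known. The guides make up 85 of the library's 103074 and cover 16 of its 18788 genes, through 17 of its 20374 units of a gene and an annotated promoter. Each unit has 5 guides, and NABP2 has a set for each of its promoters, P1 and P2. ASUN, VWA9 and C7orf26 are the older symbols of INTS13, INTS14 and INTS15. The library also holds 1895 non-targeting guides, which match no promoter and set the baseline for every gene value below.

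The guides were read out in K562, a chronic myeloid leukaemia cell line that carries the BCR-ABL1 kinase. All cells expressed dCas9-KRAB, a Cas9 that cannot cut, fused to a repressor domain, so that a guide near a start site lowers transcription of its gene; they were 1 pooled, sorted line. In the survival screens with the LGR library, the version newly cloned in the study, 3 end-point cultures (Tf) were set against 1 starting sample (T0) at a coverage of 1000 cells per guide, and 4 Tf against 2 T0 at 100 cells per guide, after 7 days of growth. In the dasatinib screens, run at 100 cells per guide with the LGR library and with the legacy library cloned earlier, 2 cultures per library received 0.75 nM dasatinib, an inhibitor of BCR-ABL1 and SRC family kinases, and 2 received 0.01% DMSO. Treatment lasted 72 h and was followed by 6 days of recovery, and 2 T0 samples per library had been taken before treatment. Each library of the dasatinib screens was transduced once and then split, so its replicates are technical. The study's text also calls replicates of the 100-fold survival screen technical, and nothing in the labels says that the 1000-fold cultures came from separate transductions. The edgeR p-values below therefore measure the spread between technical replicates. At 1000-fold coverage they measure it between cultures that may be technical replicates. The Mann-Whitney p-values of genes compare a gene's guides with the non-targeting guides, and do not measure the spread between samples.

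Depth per guide differed between the screens. The median Integrator guide had 1201 counts in the T0 sample of the 1000-fold screen and 122 and 119 in LGR DMSO. It had 74 and 57 counts in LGR dasatinib, 50 and 52 in legacy DMSO and 28 and 28 in legacy dasatinib. The 16 LGR screen samples held 16051155 to 111002750 counts (median 51240860) and the 6 legacy screen samples 15739255 to 18526437 (median 17534912). Every Integrator guide was counted in the LGR plasmid, whereas 3 of the 85 were at 0 in the legacy plasmid: 1 guide each of ASUN, INTS8 and NABP2 P1. Replicates differed by more than counting noise in every group, so no sample was counted as a repeat of another. Values per sample are given as CPM, a guide's count scaled to the total of its sample. A guide was called when edgeR's quasi-likelihood test gave a Benjamini-Hochberg adjusted p under 0.05 over all guides tested. A gene was called when its guides differed from the non-targeting guides in an exact two-sided Mann-Whitney test, adjusted over all units, and its phenotype is the mean log2 enrichment of its 3 strongest guides minus the non-targeting median. The Mann-Whitney p compares guides measured in the same samples. SDs of phenotypes are over the Tf, DMSO or dasatinib samples and leave out the spread of the samples they are set against.

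Integrator is a large complex that travels with RNA polymerase II. It was first known for cutting the 3' ends of small nuclear RNAs (snRNAs), the RNA cores of the spliceosome, and it also ends transcription of paused polymerase near many promoters by cutting the nascent RNA and by recruiting the phosphatase PP2A. INTS4, INTS9 and INTS11 form the cleavage module, with INTS11 as the nuclease. INTS1, INTS2, INTS5, INTS7, INTS8 and INTS12 belong to the backbone and shoulder that hold the parts together, and INTS5, INTS6 and INTS8 contact PP2A. INTS10, INTS13, INTS14 and INTS15 form an auxiliary module. INTS3 is shared with SOSS, a complex for the repair of broken DNA, in which it holds the single-stranded DNA binding proteins NABP1 or NABP2. INTS11 is listed in the library as CPSF3L, which the rule does not name, and is given only with the related genes below.

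CRISPRi guides sit at promoters, so the promoter is the part of each gene that the guides test. The guide sequences of these genes were not among the files used here. RefSeq (GRCh38.p14) gave the promoter window from 250 bases before to 50 bases after the start site for 12 of the 16 genes. INTS2 and INTS3 are shown because all 5 of their guides fell in both survival screens, and INTS7 because its window lies between 2 genes that are read in opposite directions. The 5 guides of INTS8 also fell in both survival screens, and its window is not shown here. Each is written 5' to 3' on the gene's strand, with CCAAT or its reverse complement ATTGG in capitals.
INTS2, chr17:61927933-61928232, minus strand: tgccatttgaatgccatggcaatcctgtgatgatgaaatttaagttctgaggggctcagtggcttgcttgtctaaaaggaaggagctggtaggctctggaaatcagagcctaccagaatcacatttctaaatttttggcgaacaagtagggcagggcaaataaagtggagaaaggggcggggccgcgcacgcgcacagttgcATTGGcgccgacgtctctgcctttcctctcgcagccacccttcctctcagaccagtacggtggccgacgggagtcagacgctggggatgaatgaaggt
INTS3, chr1:153727800-153728099, plus strand: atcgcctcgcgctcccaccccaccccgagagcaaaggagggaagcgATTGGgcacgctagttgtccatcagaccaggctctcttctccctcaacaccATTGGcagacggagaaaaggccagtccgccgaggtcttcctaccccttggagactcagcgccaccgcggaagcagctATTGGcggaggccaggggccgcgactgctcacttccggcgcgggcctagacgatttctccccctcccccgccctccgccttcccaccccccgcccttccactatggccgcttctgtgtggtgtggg
INTS7, chr1:212035508-212035807, minus strand: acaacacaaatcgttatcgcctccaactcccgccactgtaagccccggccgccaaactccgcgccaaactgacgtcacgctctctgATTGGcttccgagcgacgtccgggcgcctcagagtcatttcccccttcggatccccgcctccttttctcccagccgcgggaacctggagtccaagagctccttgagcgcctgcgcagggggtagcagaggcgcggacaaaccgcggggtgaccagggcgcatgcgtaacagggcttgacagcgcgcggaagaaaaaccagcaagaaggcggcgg
The INTS2 window had 53.3% G or C and 14 CpG dinucleotides, against 65.7% and 23 for INTS3 and 63.7% and 31 for INTS7. Searched on both strands, CCAAT occurred in 7 of the 12 Integrator windows and in 34.6% of 35116 RefSeq promoter windows of the same length. The letters CCGGAAG, the core of an ETS factor motif, occurred in 4 of the 12 (INTS1, INTS3, INTS4 and NABP2) and in 10.3% of all windows. GGGCGG, the GC box, occurred in 10 of the 12 and in 45.0% of all, and TATAA in 1 of the 12 (VWA9) and in 20.4% of all. These are letter matches only, and whether the guides' effects follow them was not tested.

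The 1000-fold survival screen asked which guides are lost as the cells grow. Of the 85 Integrator guides, all were tested and 36 (42.4%) fell, from 12 of the 16 genes, against 9.07% of the 103002 guides tested in the library. No Integrator guide rose by edgeR, where 3 had an unadjusted p under 0.05 in that direction, against 1.08% of all guides. None rose by DESeq2, against 1.59%. The median log2 fold change was -0.19 over the Integrator guides and 0.01 over all guides. By the gene score, 7 of the 17 units fell, against 7.19% of 20374 units, and none rose, against 0.118%. The 7 were INTS2, INTS8, INTS3, INTS4, INTS5, VWA9 and C7orf26.

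INTS2, a backbone subunit, had the lowest phenotype of the complex at 1000-fold coverage, -6.78 ± 1.5 (SD, n = 3 Tf; adjusted exact Mann-Whitney p = 2.52e-12). Its most depleted guide, at chr17 PAM position 60005353 (hg19, minus strand), had 0.133, 0.0943 and 0.0270 CPM in the 3 Tf samples, against 12.6 CPM in T0. Its log2 fold change was -7.27 (SE 0.33, edgeR adjusted p = 6.31e-23), and the other 4 guides lay between -6.07 and -5.24. Every Tf value of this guide was thus far under the T0 value, and the 5 guides, spread over 218 bases on both strands, all fell. INTS8, a backbone subunit that contacts PP2A, followed with a phenotype of -4.61 ± 0.33 and all 5 guides lower, at log2 values of -5.18 to -3.01 within 78 bases. Its most depleted guide had 0.293, 0.528 and 0.351 CPM in Tf and 13.6 CPM in T0.

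INTS5 guides differed widely. The guide at chr11 position 62420725 (minus strand) had 0.416, 0.292 and 0.252 CPM in Tf, against 13.2 CPM in T0, a log2 fold change of -5.42 (SE 0.25). The guide 130 bases away on the same strand, at 62420595, fell by 1.69 on the log2 scale and the one at 62420338 fell by 0.43, while the other 2 had -0.19 and -0.14 and were not called. The one at -0.14, on the plus strand at 62420695, lies only 30 bases from the strongest. The phenotype of INTS5 was -2.56 ± 0.16 (adjusted p = 4.59e-04). The guide at 62420725 thus had most of the INTS5 effect.

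The other backbone genes rested on 1 guide or none. For INTS7, the guide at chr1 position 212208849 (plus strand) had 0.804, 0.566 and 0.577 CPM in Tf, against 10.3 CPM in T0, a log2 fold change of -4.05 (SE 0.26, adjusted p = 1.69e-17). The other 4 INTS7 guides lay between 0.02 and 0.17, and the gene was not called (phenotype -1.28 ± 0.13, adjusted p = 0.978). INTS1, the largest subunit, had 1 called guide of 5, at chr7 position 1543963 (minus strand), with 5.43, 5.34 and 5.93 CPM in Tf and 10.6 CPM in T0. Its log2 fold change was -0.98 (SE 0.14), and the 3 guides 6 to 20 bases away had values of -0.05 to 0.16. INTS12, a subunit with a PHD finger, had no called guide, with log2 values of -0.35 to 0.07 and a phenotype of -0.31 ± 0.09 (adjusted p = 0.209). Among backbone and shoulder genes, 15 of 30 guides fell.

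Both cleavage module genes lost guides, 7 of 10 in all, with a median log2 fold change of -2.84. INTS4, a scaffold of the module, had a phenotype of -4.06 ± 0.21 (adjusted p = 3.33e-09), and its guide at chr11 position 77705714 (plus strand) had 0.350, 0.490 and 0.459 CPM in Tf, against 11.1 CPM in T0. Its 4 guides within 49 bases had log2 values of -4.72 to -3.20, whereas the guide 426 bases from the strongest fell by only 0.37. INTS9, the inactive partner of the nuclease, had 2 strongly depleted guides, 37 bases apart on the plus strand, with log2 values of -4.60 and -2.49. The first had 0.691, 0.821 and 0.324 CPM in Tf, against 14.3 CPM in T0. The other 3 INTS9 guides, 208 to 386 bases from the first, lay between -0.17 and 0.20. The gene score did not call INTS9 (phenotype -2.49 ± 0.13, adjusted p = 0.54). With its counts summed in edgeR, INTS9 was called lower, at a log2 fold change of -0.81 (SE 0.06, adjusted p = 6.2e-42). The depleted guides of both genes were close together, and the guides farther along showed little change.

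The auxiliary module fell less. Of its 20 guides 9 fell, and the median log2 fold change was -0.39. VWA9 (INTS14) had a phenotype of -0.72 ± 0.05 (adjusted p = 4.34e-07) and C7orf26 (INTS15) one of -0.46 ± 0.04 (adjusted p = 3.72e-04). The VWA9 guide at chr15 position 65903414 (minus strand) had 5.22, 5.65 and 5.83 CPM in Tf, against 10.3 CPM in T0, and the C7orf26 guide at chr7 position 6629634 (plus strand) 10.1, 10.3 and 10 CPM in Tf, against 13.9 CPM in T0. These guides were still well represented at the end of the culture. INTS10 had 2 called guides of 5 (log2 values of -0.78 and -0.54) and a phenotype of -0.52 ± 0.05 that was not called (adjusted p = 0.536). ASUN (INTS13) had 2 called guides, both at -0.68, and a phenotype of -0.40 ± 0.07 (adjusted p = 0.649).

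Within the SOSS genes only INTS3 guides were called, 5 of its 5 and none of the 15 guides of NABP1 and NABP2. INTS3 had a phenotype of -4.50 ± 0.34 (adjusted p = 4.98e-11). Its guide at chr1 position 153700546 (plus strand) had 0.274, 0.330 and 0.0541 CPM in Tf and 14.3 CPM in T0, a log2 fold change of -6.08 (SE 0.28). The NABP phenotypes were -0.05 ± 0.01 for NABP1, 0.14 ± 0.02 for NABP2 P1 and 0.13 ± 0.04 for NABP2 P2, with adjusted p-values of 0.994, 0.443 and 0.612. NABP1 and NABP2 are related proteins that can each bind INTS3, and each guide here was designed against one of them. INTS6, the subunit that meets PP2A, had no called guide, log2 values of -0.10 to 0.07 and a phenotype of -0.07 ± 0.02 (adjusted p = 0.861). Whether any of these guides lowered its target's RNA was not measured in these screens.

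The 100-fold survival screen measured the same guides with fewer cells. All 85 were tested and 30 (35.3%) fell, from 12 genes, against 5.68% of all guides. None rose by edgeR, where 3 had an unadjusted p under 0.05 in that direction, against 0.0437% of all guides. DESeq2 called 1 guide higher, against 0.591% of all guides. By the gene score 6 of 17 units fell, against 6.6% of all units, and none rose, against 0.0638%. INTS2 had -7.86 ± 1.15 (SD, n = 4 Tf), INTS8 -4.97 ± 0.71, INTS3 -4.69 ± 0.41, INTS4 -4.57 ± 0.80, VWA9 -1.18 ± 0.47 and C7orf26 -0.77 ± 0.10. The C7orf26 call (adjusted p = 0.0476) is lost without Tf replicate 1, Tf replicate 3 or T0 replicate 2, with adjusted p-values of 0.0824, 0.185 and 0.153. The order of these 6 was the one seen at 1000-fold coverage, although INTS8, INTS3 and INTS4 lay within 1 SD of each other.

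The INTS2 guide at 60005353 had 0, 0.238, 0.231 and 0 CPM in the 4 Tf samples of the 100-fold screen, against 14.6 and 7.88 CPM in the 2 T0 samples. The guide at 60005135 was at 0 in 3 Tf samples and at 0.220 CPM in the other, against 9.40 and 9.65 CPM in T0. The INTS9 guide with the strongest loss had 0, 0.347, 0.192 and 0 CPM in Tf and 16.3 and 19.7 CPM in T0. No Tf sample overlapped with a T0 sample for any of these guides, and the share of all guides without overlap was not computed. INTS5 and INTS9 had depleted guides without a call by the gene score, with phenotypes of -3.28 ± 0.72 (adjusted p = 0.395) and -3.99 ± 0.56 (adjusted p = 0.275), and INTS7 had -2.0 ± 0.86 from 1 guide. With counts summed per gene in edgeR, INTS5 had -0.73 (SE 0.11, adjusted p = 4.33e-06) and INTS9 -0.95 (SE 0.12, adjusted p = 7.33e-08). INTS7 was not called by that test (adjusted p = 0.0929).

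The remaining phenotypes at 100-fold coverage were not called. INTS10 had -0.77 ± 0.18 (adjusted p = 0.207), INTS1 -0.67 ± 0.39, ASUN -0.64 ± 0.43 and INTS12 -0.30 ± 0.16. INTS6 had -0.08 ± 0.26, NABP1 -0.07 ± 0.15, NABP2 P1 -0.17 ± 0.21 and NABP2 P2 0.04 ± 0.22. The test of the difference between the 2 coverages called 0 of 85 Integrator guides by edgeR, with 2 at an unadjusted p under 0.05, and 0.0% of all guides. The difference of log2 values over the 85 guides had a median of 0.05 and ran from -0.76 to 2.45.

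In the dasatinib screens, the DMSO cultures against T0 give the growth effect again, in both libraries and over the treatment and recovery time. In the LGR library 34 of 85 guides (40.0%) fell, from 13 genes, against 7.42% of all guides. None rose by edgeR, where 3 had an unadjusted p under 0.05, against 0.535% of all guides, nor by DESeq2, against 0.831%. In the legacy library 81 guides were tested and 29 (35.8%) fell, from 10 genes, against 6.88% of all guides. None rose by edgeR, where 1 had an unadjusted p under 0.05, against 0.62%, nor by DESeq2, against 0.87%. These counts were lower in other fits. Leaving out T0 replicate A or B gave 17 or 15 lower guides in the LGR library, against 3.28% or 3.34% of all guides, and 16 or 14 in the legacy library, against 4.01% or 4.1%. With the dasatinib samples in the same fit, 6 guides were lower in the LGR library, against 1.63% of all guides, and 8 in the legacy library, against 2.41%. By the gene score the same 5 genes fell in both libraries: INTS2, INTS3, INTS4, INTS8 and VWA9. They were 5 of 17 units in each, against 6.17% of all units in the LGR library and 5.62% in the legacy library, and no unit rose, against 0.0836% and 0.113%.

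INTS3 had the lowest phenotype of the DMSO cultures, -5.73 ± 0.21 in the LGR library and -4.69 ± 0.99 in the legacy library (SD, n = 2 each). Its guide at 153700546 had 0 and 0 CPM in LGR DMSO, against 4.94 and 4.34 CPM in T0, and 0 and 0 CPM in legacy DMSO, against 0.810 and 2.97 CPM in T0. With a floor of 3 counts over each arm, it was at least 52.6-fold lower in LGR DMSO and at least 21.6-fold lower in legacy DMSO. The weaker INTS3 guide at 153700591 kept 1.63 and 0.810 CPM in LGR DMSO, against 7.41 and 8.68 CPM in T0. The legacy cultures had 0.687 and 0.523 CPM in DMSO and 11.3 and 12.0 CPM in T0.

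INTS8 had -4.94 ± 0.51 in LGR DMSO and -4.08 ± 1.60 in legacy DMSO, INTS4 -3.47 ± 0.17 and -3.34 ± 1.18, and INTS2 -5.14 ± 0.75 and -3.75 ± 0.44. Some of these rest on few guides, since a guide needed a mean of 50 counts in an arm. INTS2 was scored on 1 guide in the LGR library (adjusted p = 0.0359) and on 2 in the legacy library (adjusted p = 0.00203), and INTS4 and INTS8 on 2 each in the legacy library. Without DMSO replicate 2 the INTS2 call is lost in the LGR library (adjusted p = 0.0551) and the INTS4 call in the legacy library (adjusted p = 0.245). The INTS4 guide at 77705714 was at 0 in both legacy DMSO samples, against 2.75 and 2.30 CPM in T0, at least 29.2-fold lower. In the LGR library it had 0.241 and 0.868 CPM in DMSO and 4.33 and 4.23 CPM in T0.

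VWA9 fell further in the DMSO cultures than in the survival screens, with -2.20 ± 0.49 in the LGR library and -1.87 ± 0.03 in the legacy library; the 2 kinds of screen differ in length and in the T0 they are set against, and their difference was not tested. Its guide at 65903465 had 1.99 and 2.89 CPM in LGR DMSO, against 12.5 and 10.1 CPM in T0, and 3.49 and 2.79 CPM in legacy DMSO, against 7.34 and 8.24 CPM in T0. DMSO and T0 samples of this guide did not overlap in either library, and the share of all guides without overlap was not computed. C7orf26 had -1.07 ± 0.15 (adjusted p = 0.0566) and -1.28 ± 0.23 (adjusted p = 0.0542), and ASUN -0.96 ± 0.07 (adjusted p = 0.0902) and -1.77 ± 0.38 (adjusted p = 0.0821), LGR before legacy, all short of the threshold. Leaving out 1 sample brought C7orf26 past it in the LGR library (without DMSO replicate 1 or T0 replicate A, adjusted p = 0.0497 and 0.0378), and both genes in the legacy library (without DMSO replicate 2 or T0 replicate B). All 4 auxiliary genes had a negative phenotype in both libraries, and VWA9 alone was called by the gene score. With counts summed per gene in edgeR, all 4 were called lower in the LGR library. Adjusted p-values were 0.0409 for ASUN, 0.00167 for C7orf26, 0.0241 for INTS10 and 7.04e-07 for VWA9. In the legacy library they were 0.00121, 0.000402, 0.601 and 2.43e-06, so INTS10 was not called there.

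INTS9 had -2.06 ± 0.30 in LGR DMSO and -4.06 ± 0.64 in legacy DMSO without a call (adjusted p = 0.671 and 0.526), again from the same 2 guides. INTS5 had -1.71 ± 0.47 and -1.14 ± 0.41, INTS7 -0.93 ± 0.50 and -0.10 ± 0.21, and INTS1 -0.74 ± 0.09 and -0.19 ± 0.17. INTS10 had -0.86 ± 0.04 and -0.15 ± 0.13, and INTS12 -0.82 ± 0.39 and -0.63 ± 0.21. INTS6 had -0.16 ± 0.11 and 0.08 ± 0.03, NABP1 0.15 ± 0.19 and -0.30 ± 0.12, NABP2 P1 -0.16 ± 0.47 and -0.27 ± 0.35, and NABP2 P2 0.23 ± 0.09 and 0.32 ± 0.07. None of these 10 units was called by the gene score in either library with the minimum of 50 counts. With a minimum of 10 counts INTS5 was called in LGR DMSO, at -3.07 (adjusted p = 0.0389), and likewise with no minimum (adjusted p = 0.0385). Without T0 replicate B it was called in legacy DMSO, at -1.33 (adjusted p = 0.0336). With counts summed per gene in edgeR, INTS5, INTS10 and INTS12 were called lower in LGR DMSO (adjusted p = 0.00175, 0.0241 and 0.0216). That test also called INTS5 lower in legacy DMSO (adjusted p = 0.00591). Testing the difference between the libraries called 0 of 85 Integrator guides by edgeR, with 14 at an unadjusted p under 0.05, against 0.144% of all guides. The guide with the lowest p in that test, the depleted INTS9 guide (adjusted p = 0.116), was at 0 in both legacy DMSO samples and at 0.422 and 1.74 CPM in LGR DMSO.

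Over the 81 guides tested in all 4 growth comparisons, 23 fell in all 4 and 42 in none, with 5, 4 and 7 guides that fell in 1, 2 and 3 of them. In the single comparisons 5.68% to 9.07% of all guides fell. The share of all guides that fell in all 4, or in none, was not computed. The LGR DMSO and survival comparisons share no samples, and neither do the libraries. The 23 were 4 guides each of INTS3, INTS4 and INTS8, 3 of INTS2, 2 each of INTS5 and INTS9, and 1 each of ASUN, C7orf26, INTS7 and VWA9. The 42 included every guide of INTS6 and NABP1, all 9 tested guides of NABP2 and 4 guides each of INTS1 and INTS7. As a description, Pearson's r of the guide log2 values was 0.98 between the 2 survival coverages (85 guides), 0.80 between LGR survival at 1000-fold and LGR DMSO (85 guides) and 0.75 between LGR and legacy DMSO (81 guides). These guides share targets, and guides of a gene are not independent.

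The level of the guides before T0 differs between the screens and bears on these values. Relative to the non-targeting median of the same sample, the median INTS2 guide stood at 1.45 in the LGR plasmid and at 1.38 to 1.42 in the survival T0 samples, but at 0.16 and 0.27 in the T0 samples of the LGR dasatinib screen. In the legacy library it stood at 1.09 in the plasmid and at 0.18 and 0.21 at T0. INTS2 guides were thus already scarce when the dasatinib screens began. INTS4 had 1.41 in the LGR plasmid and 0.54 and 0.52 at T0 of the dasatinib screen, INTS8 1.61 and then 0.51 and 0.58, and INTS3 1.36 and then 0.83 and 0.71. INTS6 stood at 1.60 in that plasmid and at 1.40 and 1.51 at T0. The T0 of the dasatinib screens was taken a week after infection, per the study's methods. The plasmid is 1 sample per library, so these levels have no test.

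Over all 85 guides, the median level relative to non-targeting guides was 1.41 in the LGR plasmid, 1.37 to 1.39 at survival T0, 1.03 to 1.06 at Tf of the 1000-fold screen and 0.85 to 0.98 at Tf of the 100-fold screen. In the LGR dasatinib screen it was 1.11 and 1.16 at T0, 0.63 and 0.48 in dasatinib cultures and 0.87 and 0.82 in DMSO cultures. In the legacy screen it was 0.65 and 0.63 at T0, 0.20 and 0.18 with dasatinib and 0.30 and 0.32 with DMSO, against 0.90 in the plasmid. The number of the 85 guides at 0 followed the same course, with 8 and 10 in LGR dasatinib, 5 and 7 in LGR DMSO, 17 and 18 in legacy dasatinib and 16 in each legacy DMSO sample. In the transduction titration, cells were infected at 4 coverages and selected with puromycin, without dasatinib. The median level there was 1.26 to 1.36 in the LGR samples from 50 to 200 cells per guide, and INTS2 stood at 0.94 to 1.36. At 10 cells per guide the INTS2 level was 0.33 and 0.26 in the LGR samples, where duplicates of single guides differ widely. In the legacy titration, INTS2 stood at 0.52 to 0.82 from 50 to 200 cells per guide and at 1.65 and 1.14 at 10 cells per guide.

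Dasatinib against DMSO asks whether loss of Integrator changes the response to the drug. In the LGR library 75 of the 85 guides had enough counts and 0 were called by edgeR, against 0.00393% of all guides that fell and 0.0954% that rose; 12 had an unadjusted p under 0.05, 8 lower and 4 higher. In the legacy library 67 were tested and 0 were called, against 0.0349% and 0.572%, with 13 at an unadjusted p under 0.05, 8 lower and 5 higher. DESeq2 called 2 guides lower and 1 higher in the LGR library, against 0.349% and 1.71% of all guides, and 1 lower and 1 higher in the legacy library, against 0.368% and 2.04%. With 1 dasatinib sample left out, the lone sample being assumed to vary as the DMSO samples did, edgeR made many calls over the whole library. Without LGR dasatinib replicate 1 it called 15 Integrator guides lower and 4 higher, against 9.08% and 12.0% of all guides, and without replicate 2 it called 5 lower and 6 higher, against 8.51% and 11.7%. Without legacy dasatinib replicate 1 it called 5 lower and 4 higher, against 6.19% and 9.71%, and without replicate 2 it called 7 lower and 3 higher, against 6.09% and 9.47%. The test of the difference between the libraries called 0 of 78 guides by edgeR, with 6 at an unadjusted p under 0.05, against 0.00293% of all guides. The 2 dasatinib samples of a library differed from each other more than the 2 DMSO samples did, with r of log2 values of 0.728 against 0.903 in the LGR library and 0.842 against 0.930 in the legacy library.

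By the gene score 0 of 15 units were called in the LGR library, with 4 at an unadjusted exact Mann-Whitney p under 0.05, against 0.383% of all units lower and 0.631% higher. In the legacy library 1 of 13 units was called, NABP2 P1, which was lower with dasatinib, against 0.462% lower and 0.645% higher. INTS2 and INTS8 were not scored in the LGR library, nor INTS2, INTS3, INTS4 and INTS8 in the legacy library, since none of their guides reached a mean of 50 counts in either arm, and INTS3 and INTS4 were scored on 1 guide each in the LGR library. With a minimum of 10 counts INTS2 was called lower with dasatinib in the LGR library, at -2.43 (adjusted exact Mann-Whitney p = 0.00241). That call rested on 2 guides with few counts, where counts of 0 were set to 1. The guide at 60005135 had 18 and 7 counts with DMSO and 0 and 9 with dasatinib. The guide at 60005294 had 10 and 10 counts with DMSO and 0 and 0 with dasatinib. With counts summed per gene in edgeR, none of these 4 genes was called in either library. INTS2 then had log2 values of -0.93 (SE 0.85) in the LGR and -0.43 (SE 0.55) in the legacy library, INTS3 1.37 (SE 0.5) and 1.13 (SE 0.6), INTS4 -0.77 (SE 0.34) and 0.43 (SE 0.64), and INTS8 0.08 (SE 0.87) and -1.67 (SE 0.87).

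NABP2 P1 had a phenotype of -1.24 ± 0.29 in the legacy dasatinib cultures (SD, n = 2; adjusted p = 0.0327, 4 guides). The guide at chr12 position 56618339 had 3.49 and 5.62 CPM with dasatinib, against 8.31 and 9.70 CPM with DMSO, and the guide at 56618343 5.02 and 6.08 CPM, against 13.0 and 10.7 CPM. These 2 guides did not overlap between the groups. With 2 samples per group an unchanged guide can also separate, and the share of all guides without overlap was not computed. The guide at 56618158 had 2.41 and 0.511 CPM with dasatinib and 2.35 and 6.74 CPM with DMSO, and the guide at 56618229 3.37 and 1.53 CPM, against 2.69 and 4.94 CPM, so that these did overlap. In the LGR library NABP2 P1 had -0.20 ± 0.13 with 5 guides (adjusted p = 0.979), and NABP2 P2 had -0.27 ± 0.58 in the LGR and -0.02 ± 0.13 in the legacy library. The call is lost with the guides' counts summed per gene (edgeR adjusted p = 0.0686), without either dasatinib replicate, without DMSO replicate 2 and with no minimum count.

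Among the uncalled genes, INTS12 had the lowest LGR phenotype, -3.66 ± 2.03 (adjusted exact Mann-Whitney p = 0.327), with -2.23 and -5.09 in the 2 dasatinib samples. Its guides at 106629802 and 106629811 were at 0 counts in dasatinib replicate 2, and the score set these to 1. With counts summed per gene in edgeR, INTS12 had -0.62 (SE 0.28, adjusted p = 0.353) in the LGR library. The log2 fold changes of its single guides ran from -5.41 to 0.53 there. Its most depleted guide, at chr4 position 106629811 (plus strand), had 0.187 and 0 CPM with dasatinib, against 5.24 and 4.22 CPM with DMSO, a log2 fold change of -5.41 (SE 1.0, edgeR adjusted p = 0.0984). A second INTS12 guide, at 106629610 on the minus strand, had 4.17 and 1.73 CPM with dasatinib and 12.2 and 13.5 CPM with DMSO in the LGR library. In the legacy library it had 0.318 and 0.284 CPM, against 2.86 and 0.988 CPM, with log2 fold changes of -1.97 (adjusted p = 0.21) and -2.53 (adjusted p = 0.372) in the 2 libraries. Dasatinib and DMSO samples of this guide did not overlap in either library, although neither value passed the threshold. The share of all guides without such overlap was not computed. INTS12 as a gene had -1.32 ± 0.49 in the legacy library, on 2 guides.

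Other guides had the same direction in both libraries without a call. The NABP1 guide at chr2 position 192543266 (plus strand) had 19.5 and 32.6 CPM with dasatinib and 7.53 and 10.4 CPM with DMSO in the LGR library, and 23.3 and 35.1 CPM against 12.4 and 11.6 CPM in the legacy library. Its log2 fold changes were 1.70 (SE 0.43, adjusted p = 0.21) and 1.41 (SE 0.31, adjusted p = 0.0935). The other NABP1 guides lay between -0.49 and 0.56 in the 2 libraries, so 1 of 5 guides carried the change. The INTS3 guide at 153700591 had 3.80 and 2.96 CPM with dasatinib and 1.63 and 0.810 CPM with DMSO in the LGR library, and 3.24 and 2.73 CPM against 0.687 and 0.523 CPM in the legacy library. Its log2 fold changes were 1.62 (adjusted p = 0.383) and 2.41 (adjusted p = 0.243). This guide was at 7.41 and 8.68 CPM at LGR T0 and at 11.3 and 12.0 CPM at legacy T0, so it stood below T0 in every dasatinib and DMSO culture. The INTS6 guide at chr13 position 52026860 (plus strand) was lower with dasatinib in the legacy library, at 2.22 and 2.21 CPM against 12.4 and 9.41 CPM with DMSO (log2 -2.17, adjusted p = 0.0643). In the LGR library it had 13.6 and 12.5 CPM, against 15.1 and 11.5 CPM. The libraries gave different values for this guide, and the difference did not pass the threshold (adjusted p = 0.239).

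The remaining dasatinib phenotypes were all uncalled. In the LGR library they were 0.51 ± 0.01 for ASUN, -0.85 ± 0.15 for C7orf26, -0.54 ± 0.13 for INTS1, -0.75 ± 0.12 for INTS10, -0.87 ± 0.40 for INTS5 and -0.30 ± 0.08 for INTS6. INTS7 had 0.44 ± 0.04, INTS9 -0.74 ± 0.48, NABP1 0.32 ± 0.03 and VWA9 0.45 ± 0.16, and INTS3 and INTS4, on 1 guide each, had 1.65 ± 0.23 and -1.07 ± 1.06. Adjusted p-values ran from 0.327 to 0.998 over the 15 units. The legacy values were 0.19 ± 0.32 for ASUN, -0.65 ± 0.37 for C7orf26, 0.22 ± 0.08 for INTS1, -0.58 ± 0.08 for INTS10, -1.22 ± 0.12 for INTS5 and -1.12 ± 0.29 for INTS6 (adjusted p = 0.157). INTS7 had 0.60 ± 0.36, INTS9 0.30 ± 0.05, NABP1 0.50 ± 0.00 and VWA9 -0.87 ± 0.38. C7orf26, INTS5, INTS6, INTS10 and INTS12 had negative values in both libraries, and NABP1 positive values. Other directions turned with the processing: in the LGR library ASUN had -0.58, INTS7 -0.68 and VWA9 -0.23 with a minimum of 10 counts, INTS9 had 0.26 without dasatinib replicate 2 and NABP2 P1 had 0.37 without DMSO replicate 2. In the legacy library ASUN had -0.13 without dasatinib replicate 2 and -0.22 without DMSO replicate 1, and without dasatinib replicate 1 INTS1 had 0.00 and NABP2 P2 had 0.39.

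Guides near a start site can act on a neighbour that starts in the opposite direction. Among the 12 genes with a promoter window here, 6 have such a neighbour in RefSeq within 1000 bases. INTS5, INTS8, INTS9 and INTS10 have no window here, and whether they have such a neighbour is not stated. ASUN and FGFR1OP2 start 489 bases apart, INTS12 and GSTCD 95, INTS7 and DTL 191, and VWA9 and SLC24A1 219. C7orf26 and the non-coding LOC124901582 start 117 bases apart, and INTS6 and its antisense RNA INTS6-AS1 309. The last 2 neighbours are not in the library. DTL, which directs the destruction of replication licensing factors, had phenotypes of -4.15 ± 0.33 at 1000-fold coverage (adjusted p = 2.05e-04), -5.51 ± 0.32 at 100-fold, -2.08 ± 0.18 in LGR DMSO and -1.17 ± 0.14 in legacy DMSO, called in all but the last (adjusted p = 0.239). The depleted INTS7 guide at 212208849 lies 26 bases from a DTL guide whose log2 fold change was -2.63 (SE 0.17) at 1000-fold coverage. The INTS7 guide at 212208890, 15 bases from that DTL guide on its other side, had a log2 fold change of 0.14, with 12.0, 12.1 and 11.1 CPM in Tf, against 10.3 CPM in T0. The 3 INTS7 guides on the gene's side, which are 400 bases or more away, had little change. Which of the 2 genes the depleted guide acted on cannot be told apart here.

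FGFR1OP2 fell slightly, with -0.22 ± 0.06 at 1000-fold coverage (adjusted p = 0.0438) and -0.50 ± 0.05 in LGR DMSO (adjusted p = 0.0421), and SLC24A1 P1 had -0.70 ± 0.18 in LGR DMSO (adjusted p = 0.0253). GSTCD was called in none of the 6 comparisons. The part of these neighbours in the values of ASUN, VWA9 and INTS12 was not tested.

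Genes that work with Integrator give a frame for these values. The 5 lists, of 40 library genes in all, were chosen with earlier results of these data known. CPSF3L (INTS11), the nuclease of the complex, had phenotypes of -0.76 and -0.94 in the 1000-fold and 100-fold survival screens, -1.44 ± 0.05 in LGR DMSO (adjusted p = 0.0338) and -3.04 in legacy DMSO, and was called only in LGR DMSO. Of the 3 subunits under other symbols it was the one called. Among PP2A and other partners, 2 of 7 units fell at 1000-fold coverage, against 7.19% of all units, and the PP2A scaffold PPP2R1A (P1) fell in all 4 growth comparisons, with -1.54 ± 0.15, -1.61 ± 0.10, -2.26 ± 0.43 and -2.18 ± 0.15. PPP2CA, the PP2A catalytic subunit, fell in 3 of the 4, with -0.77 ± 0.02 at 1000-fold coverage, -1.12 ± 0.07 in LGR DMSO and -1.18 ± 0.17 in legacy DMSO.

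At 1000-fold coverage 7.19% of all units fell. Of the pausing factors NELF and DSIF, 4 of 6 units fell there, with SUPT5H at -7.07 ± 0.68, NELFCD at -1.49 ± 0.17, NELFE at -0.97 ± 0.12 and SUPT4H1 at -0.43 ± 0.21. Of the factors for snRNA genes, 3 of 13 units fell there: the snRNA export adaptor PHAX at -3.87 ± 0.13, the activator ZNF143 at -1.25 ± 0.19 and KIAA0947 (ICE1) at -1.16 ± 0.10. Of the mRNA cleavage and polyadenylation factors, 10 of 14 fell, with a median phenotype of -2.86, and INTS4 at -4.06 lay between WDR33 at -4.53 ± 0.56 and SYMPK at -3.73 ± 0.46. The median over all units was -0.05, and over the 17 Integrator units -0.52. In the dasatinib cultures 3 list genes were called, against 0.383% of all units lower and 0.631% higher in the LGR library and 0.462% and 0.645% in the legacy library: the elongation factor ELL was higher in the LGR library (1.69 ± 0.04, adjusted p = 0.00715), and in the legacy library WDR33 was higher (3.15 ± 0.21, 2 guides, adjusted p = 0.00473) and CPSF6 lower (-1.63 ± 0.21, adjusted p = 0.00226). The counts in the other growth comparisons were 1, 2 and 2 of 7 for partners, 3 and 2 of 6 and 1 of 5 for NELF and DSIF, 4, 4 and 1 of 13 for snRNA genes and 8, 9 and 7 of 14 for mRNA cleavage, in the order 100-fold survival, LGR DMSO and legacy DMSO, against 6.6%, 6.17% and 5.62% of all units. All these counts are of lower units.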

How the data were processed

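Guide counts of 40 CRISPRi samples were used, 22 of them in the 6 comparisons. The authors counted reads per sgRNA and deposited whole-number counts, 1 row per guide, with no normalisation. The submitters' processing notes name bcl2fastq and the genome build hg19, in which the guide names give PAM positions. The study's methods name ScreenProcessing for handling the read counts, and name no aligner for these counts. Per guide, edgeR 4.0.16 (R 4.3.3) was run with TMM scaling on the samples of each comparison, for guides with at least 10 counts in at least 1 sample, and p-values were adjusted over all guides. SE is the log2 fold change divided by the root of the F statistic. CPM is a count divided by the sample's total. Averaging the 3 strongest guides and the Mann-Whitney test against non-targeting guides follow the study's methods, while the minimum mean of 50 counts in either arm, which left 0 to 4 guides for some units, and the setting of counts of 0 to 1 were chosen here. The score was computed in Python 3.11.15 with scipy 1.17.1. DESeq2 1.42.0, other scalings and filters, the samples fitted together, summed counts, the replicate block and leaving out each sample were tried as alternatives. The scripts were tested on simulated data. Every gene of the rule is named with its value in each comparison in which it was scored, and the guides named are each gene's most depleted guide, those of a called gene, and those noticed after their values were seen. The members and the gene lists were chosen with earlier results of these data known. Only guide-level CRISPRi screens, titrations and plasmids were analysed here; other files of the series were not used. Reads carry no molecular identifiers, so the floor of 3 counts used for guides at 0 covers counting error only.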

Additional observations from a re-analysis of the deposited data

Results flagged for a closer look

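The phenotypes of 5 genes had opposite signs in the LGR and legacy libraries, with every sample of one library on one side of 0 and every sample of the other library on the other side; the difference was not tested for any of these genes. In dasatinib against DMSO, INTS1 had -0.54 in the LGR library and 0.22 in the legacy library, INTS9 had -0.74 and 0.30, and VWA9 had 0.45 and -0.87. In DMSO against T0, INTS6 had -0.16 in the LGR library and 0.08 in the legacy library, and NABP1 had 0.15 and -0.30. None of these phenotypes passed the threshold in either library. Several signs turned with the processing. In LGR dasatinib, VWA9 had -0.23 with a minimum of 10 counts or none and INTS9 had 0.26 without dasatinib replicate 2, and INTS1 had 0.00 in legacy dasatinib without dasatinib replicate 1. INTS6 had 0.22 in LGR DMSO without DMSO replicate 2 and 0.05 without T0 replicate A, and -0.07 in legacy DMSO without DMSO replicate 1 and -0.12 without T0 replicate B.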

How the results depend on the processing

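Of 122 recomputed counts of calls, 95 stayed within 1.5 times the reported count and 27 did not, and of 812 recomputed values of single genes 769 kept their direction and their side of the threshold. With counts summed per gene in edgeR, 11 genes were called at 1000-fold coverage, 10 in LGR DMSO, 8 in legacy DMSO and 0 in legacy dasatinib. The 11 include ASUN, INTS7, INTS9 and INTS10, which the gene score did not call. The share of all units that the summed test called is not given here, and the shares of units above belong to the gene score. With T0, DMSO and dasatinib samples in 1 fit, 6 guides were called lower in LGR DMSO, against 1.63% of all guides, and 8 in legacy DMSO, against 2.41%. That fit called 1 guide lower in LGR dasatinib, against 0.228% of all guides, and none higher, against 0.946%. In legacy dasatinib it called 2 lower and 2 higher, against 0.453% and 1.87%. DESeq2 called 3 guides in LGR dasatinib (2 lower, 1 higher) and 2 in legacy dasatinib (1 lower, 1 higher). With a minimum of 10 counts 1 gene was called in LGR dasatinib, INTS2 at -2.43 (adjusted exact Mann-Whitney p = 0.00241). That call rested on 2 guides with 18 counts or fewer in every DMSO and dasatinib sample. With no minimum 0 genes were called in legacy dasatinib. The cause of these shifts was not tested.

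Replicates of equal number did not deviate together, with correlations of 0.0017 and -0.00133 between dasatinib and DMSO samples in the LGR and legacy libraries and of 0.00164 and 0.000992 between Tf and T0 samples at 100-fold coverage, so they share only a number. With the replicate block, 2 guides were called lower in LGR dasatinib, against 0.186% of all guides, and none higher, against 0.772%. In legacy dasatinib 1 was called lower and 1 higher, against 0.396% and 2.03%. At 100-fold coverage 28 were called lower and 1 higher, against 5.71% and 0.287%. The block called 0 genes in LGR dasatinib and 1 in legacy dasatinib. With summed counts and the block, an alternative chosen after seeing the data, 4 genes were called in legacy dasatinib. The share of all units called is not given here for these gene counts.

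With each sample left out, called guides ranged from 35 to 36 at 1000-fold coverage, 21 to 30 at 100-fold, 15 to 41 in LGR DMSO, 14 to 36 in legacy DMSO, 0 to 19 in LGR dasatinib and 0 to 10 in legacy dasatinib. Called genes ranged from 7 to 7, 5 to 6, 4 to 6, 5 to 8, 0 to 0 and 0 to 1 in the same order. Without legacy T0 replicate B, 8 genes were called in legacy DMSO, with ASUN, C7orf26 and INTS5 added.

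Reversed signs concerned uncalled genes. In LGR dasatinib ASUN had -0.58, INTS7 -0.68 and VWA9 -0.23 with a minimum of 10 counts and with none. Leaving out samples gave NABP1 -0.06 to 0.04 at 1000-fold coverage and NABP2 P2 -0.10 to 0.24 at 100-fold. It gave INTS6 -0.42 to 0.22 and NABP2 P1 -0.49 to 0.23 in LGR DMSO. In legacy DMSO it gave INTS10 -0.30 to 0.04, INTS6 -0.12 to 0.20, INTS7 -0.25 to 0.04, NABP2 P1 -0.70 to 0.13 and NABP2 P2 0.00 to 0.73. In LGR dasatinib it gave INTS9 -1.08 to 0.26 and NABP2 P1 -0.52 to 0.37, and in legacy dasatinib ASUN -0.22 to 1.0, INTS1 0.00 to 0.51 and NABP2 P2 -0.48 to 0.39. In the dasatinib comparisons, INTS2 and INTS8 had no guide with a mean of 50 counts in either library, and INTS3 and INTS4 had none in the legacy library and 1 each in the LGR library.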
